A study of Sus scrofa with 20 samples.

Results

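The genes described here are markers of endothelium, the cell layer that lines blood and lymph vessels. Of 10 listed markers, PECAM1, CDH5, KDR, FLT1, VWF, TEK, TIE1, STAB1, STAB2 and LYVE1, those with a pig Ensembl identifier were taken, which left 8 of the 31907 genes of the count table. VWF and STAB2 had no identifier in the name table used and were not analysed here. All 8 passed the filter on low counts, which kept 16275 genes for testing.

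The counts come from RNA-seq of backfat and liver of 5 Nanchukmacdon boars, with 5 libraries per tissue. GEO's labels give every boar as wild type, normal in disease state and 22 months old, and name no treatment (the study's methods give a higher average age), and the comparison asked for is that of tissue against tissue. RNA was taken from pieces of bulk tissue of euthanized animals, so each library mixes all cell types of the piece, and fewer cells of a type cannot be told apart from less RNA per cell. Each library is given by its tissue and the number of its boar (65, 67, 69, 71 or 72).

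Endothelium differs between these tissues. Capillaries of fat are lined by a closed, continuous layer whose cells are joined by adherens junctions, whereas the sinusoids of liver are lined by cells with open pores that have no full basement membrane and take up waste molecules from the blood through scavenger receptors. PECAM1 and CDH5 (VE-cadherin) are adhesion proteins of the contacts between endothelial cells, KDR and FLT1 are receptors of vascular endothelial growth factors (VEGF), and TEK (TIE2) is the receptor of angiopoietins, with TIE1 as its partner. STAB1 (stabilin-1) and LYVE1, a receptor of hyaluronan, are made by sinusoidal endothelium, and also by some macrophages and, for LYVE1, by lymphatic endothelium.

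PECAM1, CDH5, KDR, FLT1, TEK and TIE1 were higher in backfat than in liver, by 2.56-fold to 8.13-fold, and for each of them every backfat library lay above every liver library. STAB1 and LYVE1 passed the test in neither direction. Relative to CDH5 in the same library, STAB1 was 8.38-fold and LYVE1 5.80-fold higher in liver (log2 differences of -3.07 and -2.54), where the median of all genes differed by -2.44 in the same direction.

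The libraries held between 43820042 and 61772737 counted fragments, with medians of 48502902 in backfat and 48821039 in liver. Labels were checked with marker genes: all 8 hepatocyte markers passed the test with higher values in liver, and all 7 adipocyte markers with higher values in backfat. A pair of libraries stood apart. Backfat 69 held more hepatocyte RNA than the others of its tissue, with the 8 markers summing to 720 CPM (counts scaled to a common total per library) against 214 to 311. In liver 67 the 13 protein-coding mitochondrial genes took 44.5% of the counts, against 6.38% to 20.2% elsewhere, the hepatocyte markers summed to 22516 CPM against 70542 to 83045 in the other liver libraries, and red cell markers were at 1283 CPM against 62.8 to 284. Results are therefore also given without these libraries.

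Sequences around the gene starts are printed for PECAM1 and KDR, which were higher in backfat together, and for STAB1, which was not, so that they can be read side by side. Each is 300 bases, 250 before and 50 after the gene start in RefSeq's annotation of Sscrofa11.1, read 5′ to 3′ along the gene. Capitals mark GGAA, the core letters bound by ETS factors such as ERG and FLI1, and its reverse complement TTCC. The windows lie at chr12:14667393-14667692 (plus strand), chr8:41856330-41856629 (minus strand) and chr13:34630198-34630497 (plus strand).
PECAM1: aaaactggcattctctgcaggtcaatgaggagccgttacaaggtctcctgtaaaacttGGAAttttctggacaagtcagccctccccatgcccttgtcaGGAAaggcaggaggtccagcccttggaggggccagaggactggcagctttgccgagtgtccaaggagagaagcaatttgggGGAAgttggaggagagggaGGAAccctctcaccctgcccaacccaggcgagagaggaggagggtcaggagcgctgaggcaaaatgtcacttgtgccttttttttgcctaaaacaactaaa
KDR: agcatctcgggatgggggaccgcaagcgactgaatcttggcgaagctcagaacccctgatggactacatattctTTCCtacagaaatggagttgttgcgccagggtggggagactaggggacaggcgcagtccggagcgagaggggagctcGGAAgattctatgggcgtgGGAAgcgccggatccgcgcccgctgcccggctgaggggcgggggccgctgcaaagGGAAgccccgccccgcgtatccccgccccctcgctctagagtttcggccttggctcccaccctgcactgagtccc
STAB1: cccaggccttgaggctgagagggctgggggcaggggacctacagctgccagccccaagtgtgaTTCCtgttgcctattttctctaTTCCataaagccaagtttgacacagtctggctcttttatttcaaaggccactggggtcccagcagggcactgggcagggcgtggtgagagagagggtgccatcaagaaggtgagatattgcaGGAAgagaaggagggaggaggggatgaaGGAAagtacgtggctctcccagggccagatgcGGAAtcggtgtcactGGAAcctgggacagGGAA

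GGAA was found, on either strand, 4 times each in the windows of PECAM1 and KDR and 7 times in that of STAB1. The windows of TEK and TIE1 held 3 matches each and that of FLT1 held 1. These letters are common: 95.08% of 19556 windows of the same kind held at least 1 match, with a mean of 3.434. The longer CAGGAA, which contains GGAA, was found in 1 place for PECAM1 and in 2 places for STAB1, and 25.42% of all windows held it. None of the 6 windows searched held the GATA letters AGATAA (9.169% of all windows) or the TATA letters TATAAA (10.93%), while the SOX letters ACAAT (23.27%) were present in that of FLT1 alone, each counted on both strands. A match describes the letters of the window and is not a bound site.

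The test was edgeR's quasi-likelihood test on counts scaled by TMM, a method that sets libraries on a common scale by the bulk of their genes. A gene passed at an adjusted p of at most 0.05 (Benjamini-Hochberg over all 16275 genes), and is called a DEG where the log2 fold change was also at least 2 in either direction. Positive log2 fold changes mean higher in backfat. Of the 8 markers, 6 passed with higher values in backfat and 0 with higher values in liver (0 also by DESeq2 and at an unadjusted p under 0.05). Over all genes tested, 28.0% passed with higher values in backfat and 27.0% with higher values in liver, 55.0% in all. For the same 6 markers the tissues did not overlap, with backfat above liver, which held for 22.9% of all genes, while 19.7% of all genes and 0 markers had liver above backfat without overlap. By DEGs the markers counted 4 in backfat (PECAM1, CDH5, FLT1 and KDR) and 0 in liver, against 11.1% and 11.2% of all genes.

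**Figure D1:**
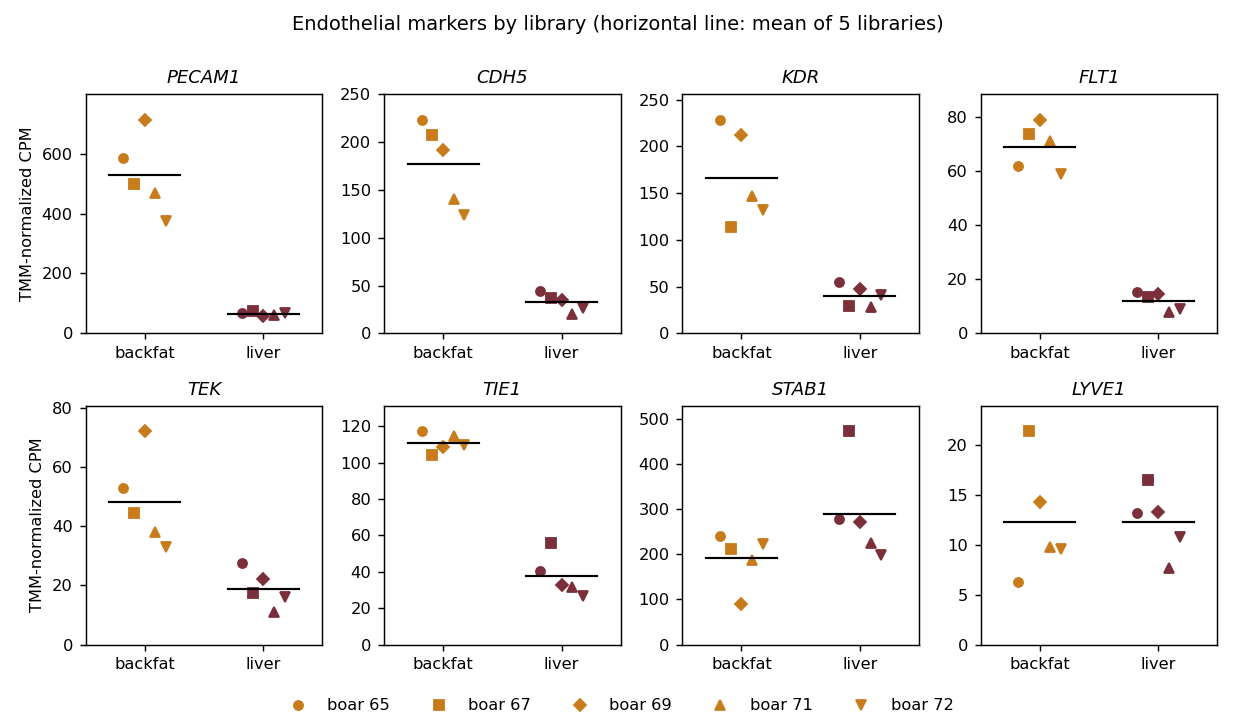
Level of each of the 8 markers (TMM-normalized CPM, linear axis from 0) in every library of backfat and liver, with 1 symbol per boar and a line at the mean of 5 libraries. The backfat libraries lie above all liver libraries for PECAM1 to TIE1, and the tissues overlap for STAB1 and LYVE1.

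PECAM1 (ENSSSCG00000017277, chr12:14667643-14723296, plus strand) had the largest log2 fold change of the 8. In backfat 65, 67, 69, 71 and 72 it was at 588, 501, 714, 469 and 376 TMM-normalized CPM. In liver of the same boars, in this order, it was at 66.4, 73.4, 56.2, 60.6 and 69.1 CPM. The lowest backfat library was thus far above the highest liver library, and liver varied little, with a coefficient of variation of 10.5% against 24.1% in backfat. Means were 529 ± 128 and 65.1 ± 6.82 CPM (SD, n = 5), a log2 fold change of 3.02 (SE 0.23, adjusted p = 2.89e-07), which was at percentile 93.8 of all genes tested. Within boars the ratio of backfat to liver ran from 5.44 in boar 72 to 12.7 in boar 69. In RefSeq's annotation a long non-coding RNA gene overlaps the span of PECAM1 on the opposite strand. The counting did not use strand, so reads of exons that overlap could not be assigned to either gene. Whether any exons overlap was not examined.

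CDH5 (ENSSSCG00000035772, chr6:27108560-27142145, plus strand) was at 223, 207, 192, 140 and 123 CPM in backfat 65, 67, 69, 71 and 72. It was at 44.5, 36.5, 34.7, 20.4 and 26.7 CPM in liver of the same boars. The tissues did not overlap, and boar 65 had the highest library in both. Means were 177 ± 43.3 and 32.6 ± 9.31 CPM (SD, n = 5), with a log2 fold change of 2.44 (SE 0.25, adjusted p = 4.50e-06) and backfat 5.44-fold higher. The ratio within boars ran from 4.62 in boar 72 to 6.88 in boar 71.

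KDR (VEGFR2, ENSSSCG00000008844, chr8:41809116-41856379, minus strand), the main signalling receptor of VEGFA, was at 228, 113, 212, 147 and 131 CPM in the 5 backfat libraries in the same order. In liver it was at 54.7, 28.8, 47.9, 28.1 and 41.2 CPM. Boars 65 and 69 had the highest values in both tissues, and the lowest backfat library was above the highest liver library. Means were 167 ± 50.9 and 40.1 ± 11.7 CPM (SD, n = 5), with a log2 fold change of 2.05 (SE 0.26, adjusted p = 3.03e-05). KDR was just past the DEG threshold: the value was 1.92 without backfat 65, 1.96 without backfat 69, 1.92 without liver 67 and 1.92 without liver 71, which left 3 markers as DEGs in each case.

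FLT1 (VEGFR1, ENSSSCG00000009320, chr11:5620698-5797095, minus strand), which binds VEGFA tightly and signals weakly, was at 61.7, 73.8, 78.9, 71.2 and 58.8 CPM in backfat. It was at 15.3, 13.6, 14.4, 8.02 and 9.11 CPM in liver. The backfat libraries were close to each other, with a coefficient of variation of 12.2%, and all were above liver. Means were 68.9 ± 8.43 and 12.1 ± 3.28 CPM (SD, n = 5), with a log2 fold change of 2.51 (SE 0.21, adjusted p = 6.44e-07) and backfat 5.70-fold higher. Per kb of exon, KDR exceeded FLT1 in every library, by 1.70 to 4.10 times in backfat and 2.35 to 5.00 times in liver, and these ranges overlap.

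TEK (ENSSSCG00000005122, chr1:195938177-196052294, minus strand) differed least of the 6 markers that passed. It was at 53.0, 44.5, 72.1, 38.2 and 32.8 CPM in backfat 65, 67, 69, 71 and 72, and at 27.7, 17.2, 22.2, 10.9 and 15.9 CPM in liver of the same boars. The lowest backfat library, of boar 72, was only slightly above the highest liver library, of boar 65. Means were 48.1 ± 15.4 and 18.8 ± 6.38 CPM (SD, n = 5), with a log2 fold change of 1.36 (SE 0.27, adjusted p = 0.00102) and a ratio within boars from 1.92 to 3.49. The annotation places a protein-coding gene on the opposite strand of TEK, with the same limit.

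TIE1 (ENSSSCG00000003950, chr6:167919662-167947253, minus strand) was at 117, 104, 108, 115 and 110 CPM in backfat. It was at 40.2, 56.1, 32.4, 31.5 and 26.8 CPM in liver. The 5 backfat libraries were nearly level, with a coefficient of variation of 4.74%, and liver 67 was the highest liver library. Means were 111 ± 5.26 and 37.4 ± 11.5 CPM (SD, n = 5), with a log2 fold change of 1.57 (SE 0.20, adjusted p = 2.61e-05) and backfat 2.96-fold higher. Per kb of exon, TIE1 exceeded TEK by 2.60 to 5.78 times in backfat and 2.51 to 5.61 times in liver, which overlap. The excess depends on the exon length of the count table. With longest RefSeq transcripts, mean TIE1 and TEK were 10.7 and 7.77 CPM per kb in backfat and 3.61 and 3.04 in liver. The ranges of TIE1 and TEK then overlapped in both tissues.

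STAB1 (ENSSSCG00000011443, chr13:34630448-34659371, plus strand) was at 240.4, 212, 89.4, 188 and 223 CPM in backfat 65, 67, 69, 71 and 72. It was at 278, 473, 272, 225 and 197 CPM in liver of the same boars. The tissues overlapped, and the libraries that stood apart held the extremes, backfat 69 the lowest value and liver 67 the highest. Means were 191 ± 59.7 and 289 ± 108 CPM (SD, n = 5), with a log2 fold change of -0.60 (SE 0.30, 95% interval -1.26 to 0.06, adjusted p = 0.114), and backfat was higher in 1 of 5 boars. Without backfat 69 and liver 67 the log2 fold change was -0.17 (adjusted p = 0.428). NT5DC2 lies on the opposite strand and overlaps STAB1 in the annotation, again with this limit.

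LYVE1 (ENSSSCG00000029886, chr2:48937357-48954206, plus strand) was, in backfat in the same order, at 6.25, 21.4, 14.3, 9.75 and 9.61 CPM. In liver it was at 13.2, 16.4, 13.3, 7.65 and 10.7 CPM. Boar 67 had the highest library in both tissues, and the backfat libraries spread more, with a coefficient of variation of 47.7% against 26.8%. Means were 12.3 ± 5.84 and 12.2 ± 3.28 CPM (SD, n = 5), with a log2 fold change of 0.00 (SE 0.31, 95% interval -0.68 to 0.68). The test did not pass (adjusted p = 0.9997), and the interval still allows a difference of up to 0.68 in either direction. Without backfat 67 the value was -0.29 (adjusted p = 0.410). The smallest count behind any marker value was 242 fragments, for LYVE1 in liver 71.

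The 6 markers that passed did so under every alternative tried, but the sizes depend on the scale. When libraries were scaled by their total counts only, without TMM, the median of all genes moved by 0.72 toward backfat, and 8225 genes passed in backfat against 2329 in liver, where TMM gave 4557 and 4398. On that scale the log2 fold changes were 3.75 for PECAM1, 3.14 for CDH5, 2.73 for KDR, 3.19 for FLT1, 2.03 for TEK and 2.29 for TIE1, so all 6 were DEGs, but 50.5% of all genes passed in backfat and 17.7% were DEGs there. STAB1 changed sign to 0.13 (adjusted p = 0.729) and LYVE1 was at 0.70 (adjusted p = 0.0878), close to the shift of the median. Without backfat 69 and liver 67, the 6 values under TMM were 2.94, 2.46, 1.85, 2.50, 1.13 and 1.77, with 3 DEGs.

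**Figure D2:**
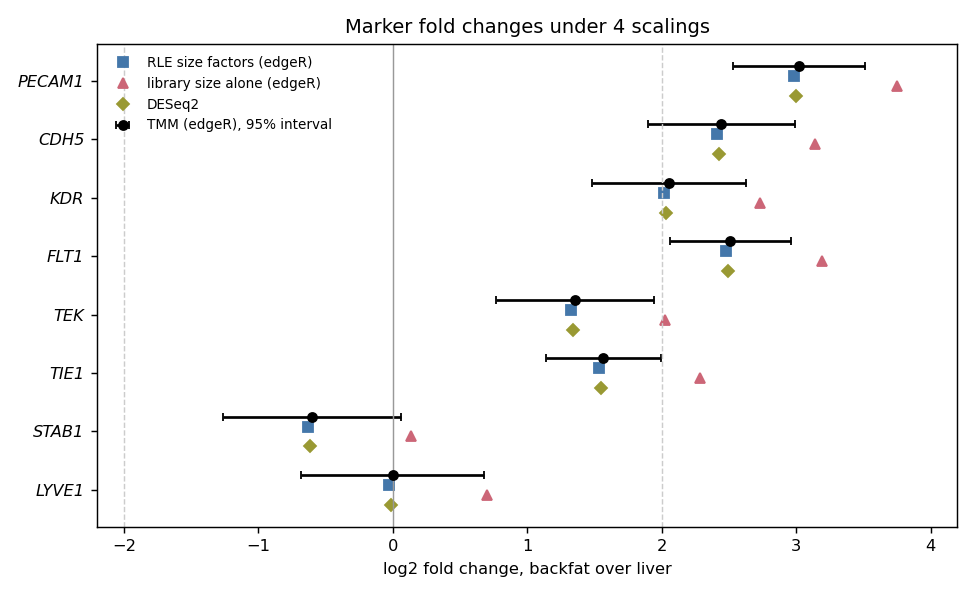
Log2 fold change of each marker (backfat over liver) with TMM and its 95% interval (black), and with RLE size factors, library size alone and DESeq2 (coloured symbols), with dashed lines at the DEG threshold of 2 in either direction. With TMM, PECAM1 is farthest to the right at 3.02, and the intervals of STAB1 and LYVE1 span 0.

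A ratio of counts within a library does not depend on the scaling between libraries, so each marker was set against CDH5. Per CDH5 count, STAB1 was at 1.08, 1.02, 0.465, 1.34 and 1.81 in backfat 65, 67, 69, 71 and 72. It was at 6.24, 12.9, 7.85, 11.03 and 7.39 in liver, so every liver library was above every backfat library, with a log2 difference of -3.07. LYVE1 was at 0.0280, 0.103, 0.0744, 0.0695 and 0.0779 per CDH5 count in backfat and at 0.296, 0.450, 0.382, 0.375 and 0.401 in liver, a log2 difference of -2.54, again with no overlap.

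TEK and TIE1 also stood higher in liver relative to CDH5. TEK ran from 0.215 to 0.375 in backfat and from 0.472 to 0.641 in liver, and TIE1 from 0.502 to 0.890 and from 0.903 to 1.55. PECAM1 (2.42 to 3.72 in backfat, 1.49 to 2.98 in liver), KDR (0.546 to 1.11, 0.789 to 1.54) and FLT1 (0.276 to 0.508, 0.341 to 0.415) overlapped. FLT1 followed CDH5 most closely, with a log2 difference of 0.09. These 4 markers without overlap, all higher in liver, must be read against the background: because CDH5 itself was higher in backfat, 78.4% of 15146 genes with a count in every library were higher in liver without overlap by the same measure, and 1.79% higher in backfat (80.2% in either direction), and the median gene differed by -2.44. LYVE1 was close to that median and STAB1 beyond it, while TEK and TIE1 fell short of it.

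**Figure D3:**
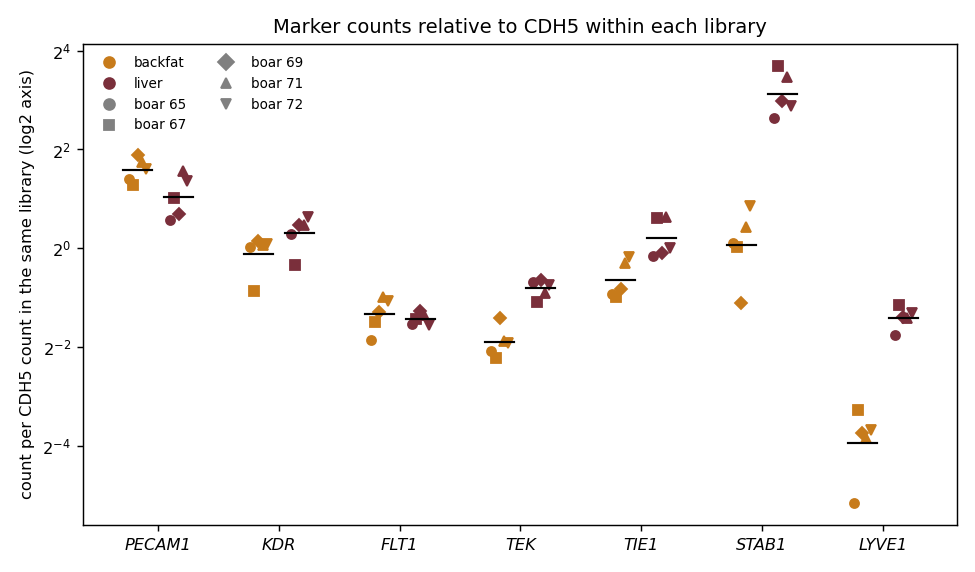
Count of each marker per CDH5 count in the same library (log2 axis), with symbols for boars, colours for tissues and a line at the tissue's mean of log2 ratios. STAB1 and LYVE1 are separated most, FLT1 lies at nearly the same ratio in both tissues, and TEK and TIE1 are separated without overlap.

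The choice of reference matters for the smaller differences, and each reference is itself higher in backfat. With PECAM1 as the reference, KDR, TEK, TIE1, STAB1 and LYVE1 were higher in liver without overlap, as were 85.8% of all genes, while 1.39% were higher in backfat. The log2 differences were -3.61 for STAB1 and -3.07 for LYVE1, against a median of -2.98 over all genes. With TIE1 as the reference, STAB1 and LYVE1 were higher in liver without overlap (60.0% of all genes), with log2 differences of -2.22 and -1.69 against a median of -1.59, and PECAM1, CDH5 and FLT1 were higher in backfat (4.85% of all genes). A change of reference moves each gene and the median by the same amount. The nearness of LYVE1 to the median is therefore 1 observation, and the 3 references do not repeat it. Against CDH5 but without backfat 69 and liver 67, 5 markers were higher in liver, KDR being added, against 80.5% of all genes and 2.30% higher in backfat. STAB1 then differed by -2.64 and LYVE1 by -2.52, where the median was -2.44.

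Levels can be compared between genes only per length, here as TMM-normalized CPM per kb of exon. In backfat the order was PECAM1 at 66.7 ± 16.1, CDH5 at 42.6 ± 10.4, KDR at 27.5 ± 8.41, TIE1 at 27.3 ± 1.29, STAB1 at 14.4 ± 4.50, FLT1 at 10.3 ± 1.26, TEK at 6.87 ± 2.19 and LYVE1 at 5.19 ± 2.47 CPM per kb (SD, n = 5). Of neighbours in this order, TIE1 and STAB1 alone did not overlap between their 5 libraries. In liver the order was STAB1 at 21.8 ± 8.14, TIE1 at 9.21 ± 2.83, PECAM1 at 8.21 ± 0.859, CDH5 at 7.83 ± 2.24, KDR at 6.63 ± 1.93, LYVE1 at 5.19 ± 1.39, TEK at 2.68 ± 0.912 and FLT1 at 1.80 ± 0.489. Here STAB1 and TIE1 alone were neighbours without overlap. STAB1 thus moved from rank 5 to rank 1, and PECAM1 from rank 1 to rank 3. The exon length of the count table is the union of all transcripts, 7936 bases for PECAM1 and 4060 for TIE1. The longest RefSeq transcripts have 3525 and 10371 bases, and with those PECAM1 took rank 2 and TIE1 rank 6 in liver. In backfat STAB1 then took rank 4 and TIE1 rank 5, which overlapped, and PECAM1 no longer overlapped CDH5.

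Of the sum of the 8 markers per kb, STAB1 made up 7.42% ± 2.77 in backfat and 33.8% ± 5.55 in liver, and LYVE1 2.62% ± 1.22 and 8.15% ± 0.878 (SD, n = 5). PECAM1 made up 32.9% ± 3.41 and 13.4% ± 2.79, CDH5 21.0% ± 2.86 and 12.3% ± 2.03, and FLT1 5.18% ± 0.744 and 2.84% ± 0.451. For these 5 the tissues did not overlap, which restates the differences between the same 8 markers. A share within the 8 has no counterpart over all genes, and it rests on the exon lengths of the count table. The shares of KDR, TEK and TIE1 did overlap, at means of 13.6% and 10.8%, 3.37% and 4.25%, and 13.9% and 14.4%. Shares sum to 100% in a library, so the rise of one is the fall of others. The count of STAB1 per kb relative to PECAM1 per kb ranged from 0.0749 to 0.355 in backfat and from 1.71 to 3.85 in liver, while STAB1 relative to LYVE1 overlapped, at 1.11 to 6.84 and 3.27 to 5.23.

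**Figure D4:**
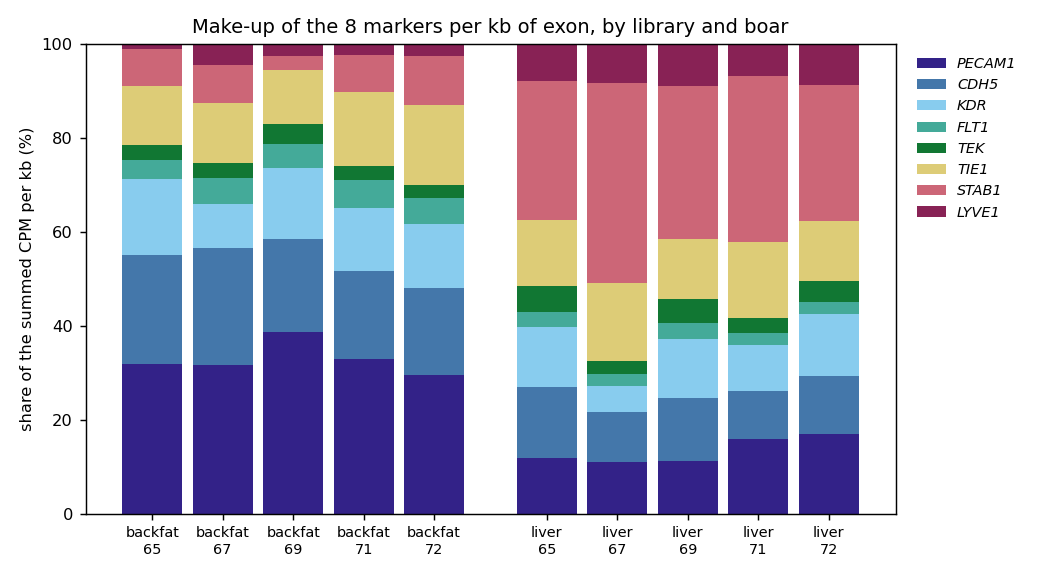
Share of each marker in the sum of the 8 markers' CPM per kb of exon (percent, stacked to 100), with 1 bar per library. PECAM1 and CDH5 take the largest shares in each backfat library, and STAB1 the largest in each liver library.

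The genes nearest to a marker over the 10 libraries were found by the root-mean-square difference of centred log2 levels among 12739 genes with a symbol. Nearest to CDH5 were LNPEP, a membrane aminopeptidase, at 0.16, NRP1, the co-receptor of KDR, at 0.18 and KCTD9 at 0.22. NRP1 was at 98.7 ± 20.4 CPM in backfat and 20.2 ± 5.05 CPM in liver (SD, n = 5), with a log2 fold change of 2.29 (SE 0.21, adjusted p = 1.84e-06). Nearness was measured on the same libraries, so a fold change close to that of CDH5 follows from the choice. Among the 8 markers themselves, CDH5 and FLT1 were nearest to each other at 0.24, and STAB1 and LYVE1 were nearest to each other, but only at 0.73. VWF and STAB2 had been set as further starting points. STAB1 and LYVE1 took their place after values were seen, with CLASRP, CLK2 and SNAPC4 nearest to STAB1 (0.20 to 0.22) and PGAP1, MAF and WNK3 nearest to LYVE1 (0.30 to 0.33).

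Further genes of endothelium were taken from 8 lists, which name 95 genes beside the markers, with 79 of them tested. Of these 50 passed with higher values in backfat, 14 with higher values in liver, and 15 did not pass. Counts here and in the lists below stand against shares of all genes tested, 28.0% passing in backfat and 27.0% in liver. DEGs made up 11.1% and 11.2% of all genes. Of the pan-endothelial genes, used by endothelium of most vessels, 19 of 21 passed with higher values in backfat and 0 in liver, with a median log2 fold change of 2.14 against 0.00 over all genes. ENG, a co-receptor of the TGF-beta family, was at 278 ± 46.3 CPM in backfat and 185 ± 52.7 CPM in liver (SD, n = 5, log2 fold change 0.59, SE 0.23, adjusted p = 0.0426), a call that was lost with RLE size factors (adjusted p = 0.0633) and without backfat 69 and liver 67 (adjusted p = 0.0885). PLVAP, a protein of endothelial pore diaphragms, was at 270 ± 53.5 and 157 ± 20.5 CPM (log2 fold change 0.78, SE 0.19, adjusted p = 0.00439). EGFL7 (0.25, adjusted p = 0.622) and RASIP1 (-0.01, adjusted p = 0.994) did not pass and are named because they are the exceptions. RASIP1 was barely detected, at means of 0.238 CPM in backfat and 0.240 CPM in liver. Without backfat 69 and liver 67, 17 of the 21 passed.

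The list of liver sinusoidal genes was split, unlike the list of continuous capillary genes. Of 14 sinusoidal genes 8 passed with higher values in liver, 2 with higher values in backfat and 4 did not pass, with a median of -1.003. CLEC4G, a lectin of liver sinusoids, ranged from 170.4 to 247 CPM in liver and from 0.0858 to 0.336 CPM in backfat (log2 fold change -10.02, SE 0.37, adjusted p = 1.78e-09). MRC1, the mannose receptor, which macrophages also carry, was at 44.9 ± 12.5 CPM in liver and 27.7 ± 8.14 CPM in backfat (SD, n = 5, log2 fold change -0.70, SE 0.24, adjusted p = 0.0242). FCN2, a ficolin, and RSPO3, a WNT agonist, were higher in backfat, at log2 fold changes of 1.36 and 2.34. With library size alone the counts were 6 in liver and 4 in backfat, and MRC1 was at -0.01. On that scale 14.3% of all genes passed in liver and 50.5% in backfat.

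All 11 continuous capillary genes tested were DEGs in backfat, with a median of 5.24 and values from 3.62 to 10.52. FABP4, a fatty acid carrier, was at 4835 ± 602 CPM in backfat and 3.30 ± 2.62 CPM in liver (SD, n = 5), and CAVIN1, which shapes caveolae, was at 760.3 ± 62.4 and 61.7 ± 42.1 CPM. Adipocytes make FABP4, FABP5, CAV1 and CAVIN1 too, and FABP4 also stands in the list of adipocyte markers, so the adipocytes' part in these values was not tested. GPIHBP1, which holds lipoprotein lipase on capillary endothelium and is named here for that, ranged from 142 to 243 CPM in backfat and was at 3.79, 40.2, 2.31, 4.61 and 3.47 CPM in liver 65, 67, 69, 71 and 72. Liver 67 was thus the highest liver library for it, as for the sum of the list.

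Genes of lymphatic endothelium, another source of LYVE1, were split. Of 7 tested, 3 passed with higher values in backfat and 4 with higher values in liver, with a median of -1.56. Toward liver the largest log2 fold change was that of PROX1 (-5.97), at 0.451 CPM in backfat and 28.5 CPM in liver. RELN followed (-2.73), at 6.37 and 42.4 CPM. The part of other cell types, hepatocytes included, in the values of this list was not tested. The values therefore do not measure lymphatic endothelium alone. PDPN (33.3 ± 8.19 and 2.51 ± 1.49 CPM) and NRP2 (44.2 ± 9.80 and 16.0 ± 4.53 CPM) were higher in backfat. FLT4 (VEGFR3), which liver sinusoids also carry, was at 11.6 ± 3.19 CPM in backfat and 41.4 ± 4.05 CPM in liver (SD, n = 5, log2 fold change -1.84, SE 0.21, adjusted p = 1.01e-05), the opposite direction to KDR and FLT1. CCL21, a chemokine, was at 24.2 ± 12.6 and 71.5 ± 54.9 CPM (log2 fold change -1.56, adjusted p = 0.0187), a call that was lost with library size alone (-0.77, adjusted p = 0.118). Of 12 arterial and venous genes 9 passed in backfat and 1, the kinase BMX, in liver, at 1.39 ± 1.11 and 35.5 ± 13.3 CPM (log2 fold change -4.68, adjusted p = 6.02e-06). SEMA3G, a semaphorin of arteries, was at 74.9 ± 29.1 CPM in backfat and 7.51 ± 8.79 CPM in liver, and EPHB4, a receptor of veins, at 44.9 ± 12.3 and 27.8 ± 8.58 CPM (SD, n = 5). The call of EPHB4 was lost without backfat 69 and liver 67 (adjusted p = 0.0954), which left 8 passing in backfat.

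Among the 7 ligands of the receptors tested, 3 passed with higher values in backfat and 0 in liver (0 by DESeq2, and 1, VEGFA, at an unadjusted p under 0.05), with a median of 0.89. ANGPT1 and ANGPT2, ligands of TEK, passed with log2 fold changes of 1.90 (adjusted p = 0.000289) and 1.83 (adjusted p = 0.000122). VEGFC, a ligand of FLT4, passed with 0.89 (adjusted p = 0.0234). ANGPT4, another ligand of TEK, did not pass (-0.26, adjusted p = 0.691). VEGFD (0.56, adjusted p = 0.0695) and PGF (1.03, adjusted p = 0.145) did not pass either. Without backfat 69 and liver 67, VEGFC no longer passed (adjusted p = 0.0531), and the list counted 2 in backfat and 1, VEGFA, in liver. VEGFA, which binds KDR and FLT1, was at 116, 92.5, 123, 96.8 and 89.9 CPM in backfat 65, 67, 69, 71 and 72. In liver it was at 224, 72.1, 184, 124 and 192 CPM. Liver 67 was the lowest of all 10 libraries and the other 4 liver libraries were above every backfat library, though liver 71 was close to backfat 69. The log2 fold change of VEGFA was -0.62 (SE 0.27, adjusted p = 0.0699). It was 0.06 (adjusted p = 0.889) with library size alone and -0.87 (adjusted p = 0.00351) without backfat 69 and liver 67.

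Of 7 co-receptors and junction partners, 4 passed in backfat and 1, FLT4, in liver, with a median of 1.26. PLXND1, a semaphorin receptor, was at 203 ± 53.1 and 78.3 ± 28.6 CPM, and JUP (plakoglobin), which binds the tail of CDH5, at 146 ± 34.0 and 61.2 ± 9.09 CPM in backfat and liver (SD, n = 5). PTPRB, the phosphatase of TEK and CDH5, also passed (log2 fold change 1.64, adjusted p = 1.53e-05). CTNNB1 (0.46, adjusted p = 0.220) and CTNND1 (0.14, adjusted p = 0.591), catenins that many cell types make, did not. Of 4 partners of VWF, SELP was higher in backfat (3.12, adjusted p = 6.60e-05), ADAMTS13, the protease that cleaves VWF, was higher in liver (-1.97, adjusted p = 0.00113), and F8 and GP9 did not pass.

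**Figure D5:**
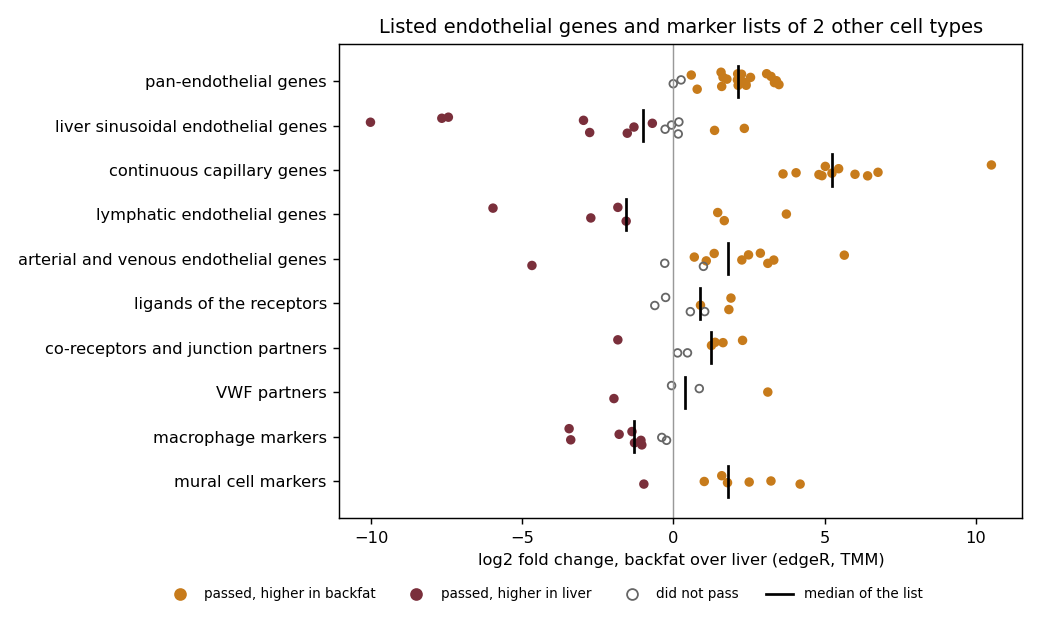
Log2 fold change (backfat over liver, TMM) of each tested gene of the 8 endothelial lists and of macrophage and mural cell markers, filled where the gene passed the test, with a bar at the median of the list. Pan-endothelial and continuous capillary genes lie to the right, and liver sinusoidal, lymphatic and macrophage genes have medians below 0.

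Other cells can carry some of these markers. Macrophages can make STAB1, LYVE1 and PECAM1, and of 9 macrophage markers tested 7 passed with higher values in liver and 0 in backfat, with a median of -1.29 (4 and 0 with library size alone, where C1QB and C1QC were among those lost). Their sum ranged from 496 to 1014 CPM of all counts in backfat and from 744 to 1194 CPM in liver. CSF1R, the receptor that defines the lineage, did not pass, at 112 ± 28.9 and 132 ± 29.6 CPM (SD, n = 5). CD68 did not pass either (log2 fold change -0.39, adjusted p = 0.110). C1QB was at 149 ± 38.7 and 308 ± 35.4 CPM and C1QC at 138 ± 31.0 and 289.7 ± 64.0 CPM (SD, n = 5). The largest log2 fold changes toward liver were those of MARCO (-3.45) and TIMD4 (-3.40). The part of macrophages in the values of STAB1 and LYVE1 was not tested. Mural cells lie on vessels beside the endothelium, and 6 of their 7 markers passed in backfat and 1 (DES) in liver, with a median of 1.79. PDGFRB was at 255 ± 26.5 and 84.4 ± 34.5 CPM and ACTA2 at 169 ± 26.1 and 48.9 ± 17.6 CPM. Of platelet genes, which could add PECAM1, GP9 alone was tested and ranged from 1.30 to 1.90 CPM in backfat and from 0.162 to 1.30 CPM in liver. Of 4 red cell and 4 skeletal muscle markers 0 passed under edgeR's test (0 also by DESeq2 and at an unadjusted p under 0.05), though 3 muscle markers passed in backfat without backfat 69 and liver 67, and muscle markers summed to 12.04 to 582 CPM in backfat and 0.967 to 118 CPM in liver. The 118 CPM was that of liver 67, and the next liver library, liver 65, was at 1.76 CPM.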

How the data were processed

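The authors checked paired reads with FastQC, used Trimmomatic for trimming and HISAT2 (also in the submitters' processing notes) for alignment to the pig genome Sscrofa11.1, and counted fragments on exons with featureCounts 2.0.1 and Ensembl release 99. Per the file header, counting used no strand and no option for reads that map to several places or genes. The deposited values are raw counts, 1 column per library. Bisulfite read-position reports were also deposited and were not used, since they carry no genomic position.

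Counts were filtered (filterByExpr), scaled by TMM and compared between tissues in edgeR 4.0.16 (R 4.3.3) with its quasi-likelihood test and no further term. SEs are log2 fold changes divided by the root of F. DESeq2 1.42.0, other scalings and filters, a boar block and omission of each library were alternatives. The fits were tested on simulated data. Promoters and positions are from RefSeq on Sscrofa11.1. Promoter windows of 2 markers are not reported here. Figures were drawn in Python 3.11.15 with matplotlib 3.10.9. List sums are in CPM of all counts, without TMM.

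The members, lists and tests were chosen with earlier results of these data known. Named genes were the markers and the 3 genes nearest to chosen markers. From each list came the 2 genes of highest mean CPM that passed in each direction. EGFL7, RASIP1, GPIHBP1, VEGFA, VEGFD, PGF, ANGPT1, ANGPT4, PTPRB, CTNNB1 and CTNND1 fall outside these rules and were chosen after values were seen. The same holds for F8, GP9, CSF1R, CD68, MARCO, TIMD4, SOX18, FABP5, CAV1, PROX1 and RELN. Boar numbers come from the names of the columns and could not be matched to the replicate numbers of the labels. Since both tissues came from the same 5 boars, these numbers pair the libraries. Deviations from the tissue means correlated within boars at 0.24, 0.11, 0.05, 0.16 and 0.10 for boars 65, 67, 69, 71 and 72, and 4 of 5 libraries matched their own boar best. No libraries were identical.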

Additional observations from a re-analysis of the deposited data

How the results depend on the processing

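Depth did not limit the markers, since every one had at least 242 fragments in each library, but 5 boars set the precision. All 8 kept their side of the test's threshold under every alternative, and the sign of LYVE1, near 0, turned with several of them. With the boar as a replicate block, 6 markers passed in backfat, 4 were DEGs and 0 were higher in liver. The block gave 49 and 14 passing list genes and 33 and 9 DEGs. It changed which side of the adjusted p threshold SOX18 (adjusted p = 0.162 against 0.0456), DES (0.0511 against 0.0394) and 3 skeletal muscle markers, which passed in backfat, were on, and that of no other marker or listed gene. ADAMTS13 became a DEG in liver (log2 fold change -2.18 against -1.97).

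Requiring at least 10 counts in every library left 9 list genes that passed with higher values in liver and 3 DEGs, against 14 and 8, since fewer genes were tested. With TIE1 as the reference of the ratios, 2 markers were higher in liver and 3 in backfat, against 4 and 0. With longest RefSeq transcripts, 3 of 8 markers kept their rank of level per kb in liver and 6 in backfat. Leaving out each library in turn gave 6 to 6 passing markers and 3 to 4 DEGs in backfat, and 0 to 0 in liver. Of list genes, 46 to 50 passed in backfat and 12 to 15 in liver, with 31 to 34 and 7 to 9 DEGs. Between 4 and 5 ratios were higher in liver without overlap, and 0 in backfat. Library size alone gave 59 and 11 passing list genes, with 44 and 7 DEGs, where 50.5% and 14.3% of all genes passed.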
